A study of Homo sapiens with 24 samples.

Results

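In this study of lung cancer cells, 10 genes of the NF-kB pathway were followed, chosen by symbol, through all 8 groups, out of 19702 genes in the table of counts. They were the subunit genes NFKB1, NFKB2, RELA and RELB, the inhibitor genes NFKBIA, NFKBIE and NFKBIZ, and the feedback genes TNFAIP3, BIRC3 and TRAF1. All 10 passed the filter on low counts in both cell lines. PC9 and H1975 are established human lung adenocarcinoma lines with activating mutations in EGFR, the gene of the epidermal growth factor receptor. Each line was sampled after 24 h in a control group, under almonertinib (an inhibitor of mutant EGFR), under paclitaxel (a taxane that stabilises microtubules) and under both drugs. The almonertinib dose was 2 nM in PC9 and 1 nM in H1975, and the paclitaxel dose was 0.3 nM in PC9 and 1 nM in H1975. The labels give no separate dose for the combination, so dose and number of drugs cannot be told apart there, and line and dose cannot be told apart between the lines. Each group held 3 RNA-seq libraries made from total RNA, with reads counted per gene. The labels do not say that these came from separate cultures, so the p-values measure the spread between libraries, which may be technical.

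NF-kB is a family of dimeric transcription factors. In resting cells the inhibitors of the IkB family hold the dimers in the cytoplasm, and signals from cytokine and pattern receptors lead the IKK kinases to mark those inhibitors for destruction. RELA with the p50 product of NFKB1 carries the canonical arm, and RELB with the p52 product of NFKB2 carries the slower non-canonical arm. Several targets of the freed dimers encode their own brakes: IkBα (NFKBIA), IkBε (NFKBIE) and the ubiquitin-editing enzyme A20 (TNFAIP3) close the loop, while cIAP2 (BIRC3) and TRAF1 act at the receptor complexes. The nuclear protein IkBζ (NFKBIZ) instead works as a cofactor at a subset of target genes. The mRNA levels below do not measure where the proteins are or how active they are.

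The promoters of these genes were searched on both strands for the classical kappa-B consensus, the 10-base site that NF-kB dimers bind. RefSeq (GRCh38.p14) gave windows from 250 bases before to 50 bases after a start site for 8 of the 10 genes. Only the 250 bases before the start were searched. Of these 8 genes 6 held a match there: NFKB1, NFKB2, NFKBIA, NFKBIZ, TNFAIP3 and BIRC3. Across all genes with a window, 11.8% held one. Genes with more windows have more places for a match. Counted by window, 8 of the 15 windows of these genes held one, beside 9.96% of all windows. The genes were chosen as members of the NF-kB pathway, and several are known targets. A share above that of all genes was therefore likely from the choice itself. Whether the matches bear on the changes in PC9 was not tested. RELA and TRAF1 had no match in the 250 bases searched, and RELB and NFKBIE were not analysed here. A match is a run of letters and was not tested as a binding site. Stretches of 30 bases around the match nearest to a start site are printed for each gene, read 5′ to 3′ on the gene's strand with the matching bases in capitals.
NFKB1, chr4:102501300-102501329, plus strand: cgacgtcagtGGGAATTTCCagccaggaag
NFKB2, chr10:102395674-102395703, plus strand: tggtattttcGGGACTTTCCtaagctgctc
NFKBIA, chr14:35404811-35404840, minus strand: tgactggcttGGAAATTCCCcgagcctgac
NFKBIZ, chr3:101827757-101827786, plus strand: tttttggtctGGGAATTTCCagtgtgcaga
TNFAIP3, chr6:137867188-137867217, plus strand: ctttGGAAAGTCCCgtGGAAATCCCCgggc
BIRC3, chr11:102317339-102317368, plus strand: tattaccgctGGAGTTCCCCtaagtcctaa
The TNFAIP3 stretch holds 2 matches, from 67 to 46 bases before the RefSeq start, and it begins at the gene start of the GENCODE annotation. The match of NFKBIA lies 81 to 72 bases before its start and that of NFKB1 49 to 40 bases before. NFKB2 has matches before each of 2 start sites, and the printed one lies 21 to 12 bases before the second. In the GENCODE annotation NFKB2 begins at chr10:102394110, before both RefSeq starts, so all its matches lie inside the annotated gene. Matches stood in the windows of genes that fell under both single drugs in PC9 (NFKB2, TNFAIP3) and of genes that passed the test under neither (NFKBIZ, BIRC3).

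The libraries held 14232299 to 24245314 counts and 13780 to 14502 detected genes. Of 8 epithelial markers, 6 had a mean over 1 CPM (a library's counts scaled to a common total with TMM factors) in PC9 and 7 in H1975, summing to 12200 to 23600 and 5430 to 8490 CPM. Of the fibroblast, leukocyte and endothelial markers, 1 of 5, 3 of 6 and 2 of 4 passed 1 CPM in PC9, and 1 of 5, 2 of 6 and 1 of 4 in H1975. LUM and PDGFRA were at 0 in both lines, DCN and PTPRC in H1975 and KDR in PC9. The libraries furthest from the others of their group were almonertinib replicate 1 in H1975 and almonertinib replicate 3 in PC9. Libraries also differed in how their deviations across all genes followed GC content: the Spearman rho averaged 0.25 ± 0.12 in PC9 controls and −0.54 ± 0.10 in PC9 paclitaxel libraries (SD, n = 3), and reached 0.80 in H1975 almonertinib replicate 1. RELB (65.4% GC), NFKB2 (62.4%), NFKBIE (61.0%) and RELA (57.1%) are GC-rich transcripts, so values with the trend on length and GC removed are given beside the results they alter.

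**Figure D1:**
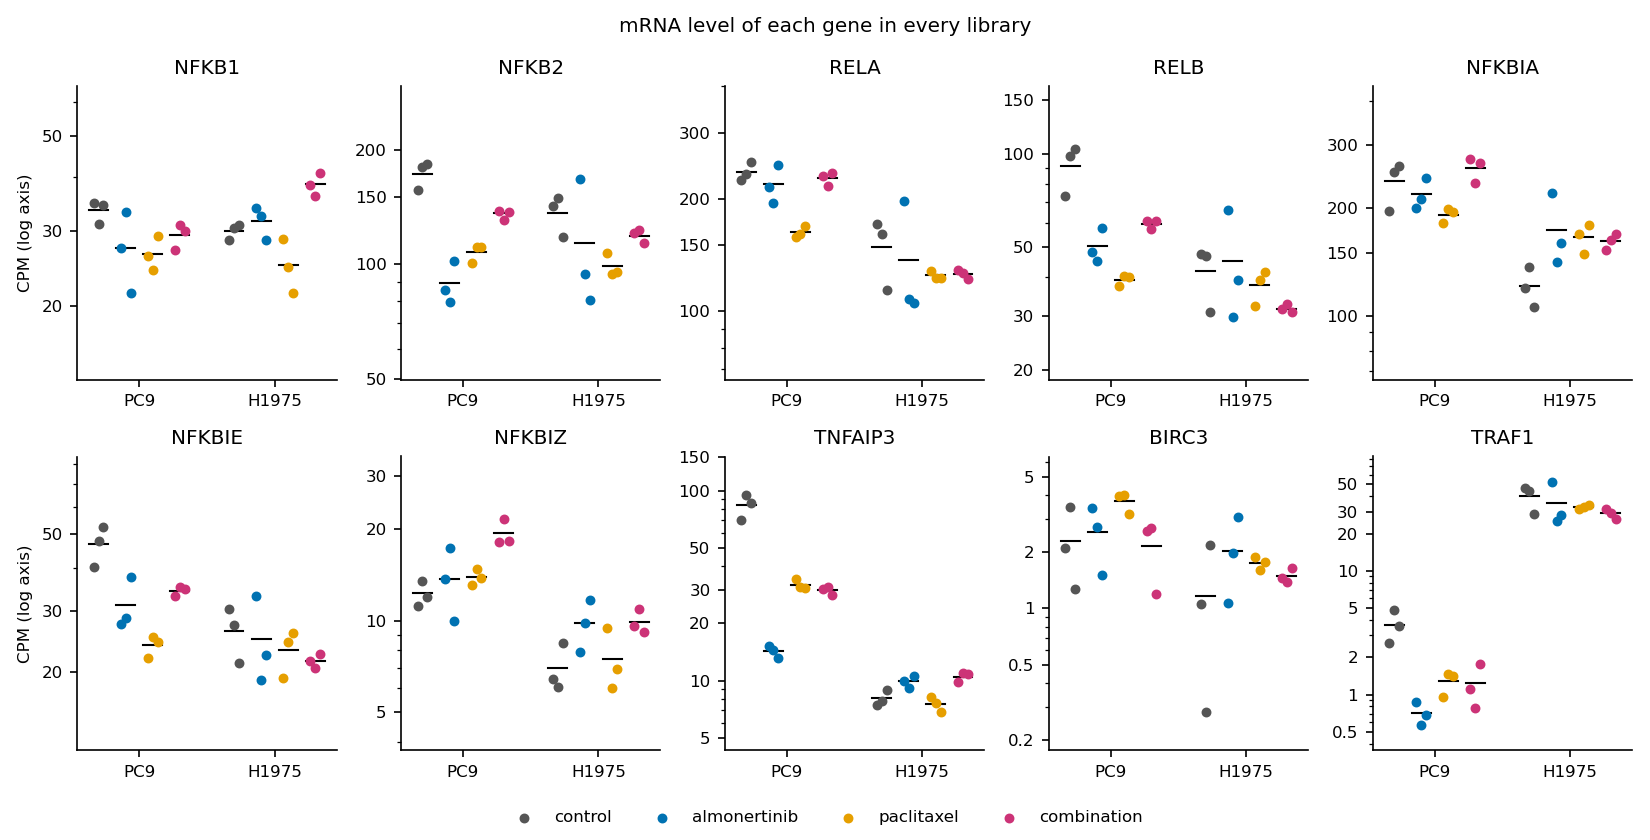
CPM of each gene (log axis) in every library, by line and treatment; points are the 3 libraries of a group and bars their mean. In PC9, TNFAIP3 sits at 70.0 to 94.5 CPM in the controls and 13.1 to 15.3 under almonertinib, while in H1975 all of its libraries lie between 6.87 and 11 CPM.

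Per kilobase of transcript, the order of levels began the same way in all 8 groups. NFKBIA was highest (153 CPM per kb in PC9 controls, 77.6 in H1975 controls), then RELA (74.1 and 46.7), then NFKB2 (50.8 and 39.8) and RELB (40.1 and 18.3). NFKBIE stood at 18.2 in PC9 controls beside TNFAIP3 at 17.7, neighbours closer to each other than the spread of their libraries. At the bottom in PC9 controls were TRAF1 (0.582) and BIRC3 (0.437), also within each other's spread. In H1975 controls TNFAIP3 was near the bottom (1.71, beside NFKBIZ at 1.78), TRAF1 stood at 6.34 next to NFKB1 at 7.34, and BIRC3 was lowest (0.225). BIRC3 rested on 5 to 96 reads in a library and TRAF1 in PC9 on 13 to 71, so their values are the least precise.

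The control groups of the lines were compared to set the starting levels. Of the 10 genes, 6 were higher in PC9 and 1 was lower (edgeR quasi-likelihood test, Benjamini-Hochberg adjusted p under 0.05, the call used throughout). Over all genes tested 68.7% differed between the lines, 34.9% higher and 33.8% lower in PC9. TNFAIP3, the A20 gene, was at 70.0, 94.5 and 86.5 CPM in the 3 PC9 controls and at 7.46, 7.79 and 8.98 in the H1975 controls. Its log2 difference was 3.37 ± 0.14 (standard error), 10.3-fold, with an adjusted p of 8.07e-17. TRAF1, an adaptor of TNF receptors, went the other way, with 2.61, 4.81 and 3.61 CPM in PC9 against 46.8, 44.5 and 28.9 in H1975 (log2 difference −3.46 ± 0.28, edgeR adjusted p = 4.39e-11). Neither pair of groups overlapped. RELB (1.14 ± 0.20), NFKBIA (0.98 ± 0.15), NFKBIE (0.83 ± 0.18), NFKBIZ (0.81 ± 0.20) and RELA (0.67 ± 0.18) were higher in PC9 on the log2 scale. NFKB1 (0.16 ± 0.14), NFKB2 (0.35 ± 0.18) and BIRC3 (0.93 ± 0.46) did not pass the test. Both NFKB2 (0.34) and BIRC3 (1.74) were called higher in PC9 with the length and GC trend removed.

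In PC9, almonertinib lowered both genes of the non-canonical arm and 3 of the feedback and inhibitor genes, while RELA, NFKB1 and NFKBIA did not pass the test. In all, 5 of the 10 genes fell and none rose, where 56.7% of genes tested were called in either direction and 27.8% fell. The median log2 change of the 10 was −0.43, beside 0.03 over all genes tested.

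TNFAIP3 changed most: its almonertinib libraries stood at 15.3, 14.5 and 13.1 CPM, far below every control. It fell by 2.54 ± 0.12 on the log2 scale, 5.82-fold, with an edgeR adjusted p of 4.29e-11. TRAF1 stood at 0.870, 0.565 and 0.681 CPM, also below every control (log2 change −2.36 ± 0.32, edgeR adjusted p = 1.34e-05), from only 13 to 17 reads in a library. Among the subunits, NFKB2, the source of p52, read 85.6, 79.4 and 102 CPM against 157, 180 and 184 in the controls and fell by 0.96 ± 0.10. RELB, its partner, read 48.3, 45.3 and 57.7 CPM against 73.3, 98.6 and 104 and fell by 0.86 ± 0.12. The inhibitor gene NFKBIE read 27.6, 28.7 and 37.7 CPM against 40.2, 47.9 and 52.5 and fell by 0.57 ± 0.12. All 5 of these genes had libraries apart from their controls, as 56.2% of genes tested did in either direction, although almonertinib replicate 3 was the highest for NFKB2, RELB and NFKBIE, and its rho with GC was 0.50 against −0.29 and −0.28 in replicates 1 and 2.

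RELA, the main activating subunit, was at 215, 195 and 246 CPM beside 225, 233 and 250 (log2 change −0.10 ± 0.09, edgeR adjusted p = 0.353). NFKBIA changed by −0.11 ± 0.11, NFKBIZ by 0.17 ± 0.17, BIRC3 by 0.16 ± 0.36 and NFKB1 by −0.29 ± 0.13, none past the threshold. With the length and GC trend removed, the 5 falls kept their calls (TNFAIP3 −2.18, TRAF1 −2.14, NFKB2 −1.02, RELB −1.01, NFKBIE −0.59), while NFKBIA turned to 0.22 and NFKBIZ stood at 0.40, both then called higher. Without almonertinib replicate 3, NFKBIZ was also called higher (0.37) and RELA lower (−0.18). Without almonertinib replicate 2, NFKB1 was called lower (−0.45, edgeR adjusted p = 0.00874), while it stood at 0.09 with the trend removed.

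**Figure D2:**
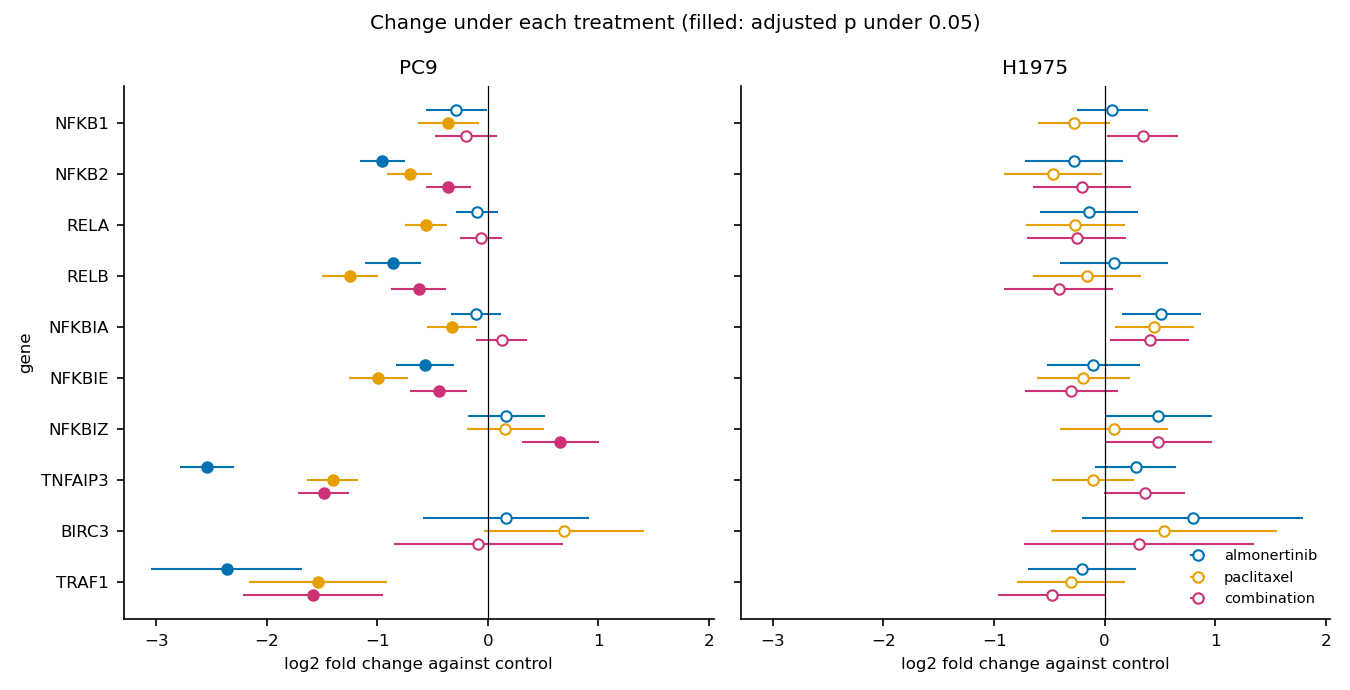
Log2 fold change against the control of the same line for each gene (bars: 95% confidence intervals; filled points: edgeR adjusted p under 0.05). TNFAIP3 and TRAF1 lie furthest left in PC9, and no point is filled in H1975.

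Paclitaxel in PC9 lowered 8 of the 10 genes and raised none, where 55% of genes tested were called and 28% fell. All 4 subunit genes were among them, with a median log2 change over the 10 of −0.63 beside −0.01 over all genes. RELB read 37.4, 40.4 and 40.0 CPM and fell by 1.25 ± 0.12 (edgeR adjusted p = 9.20e-07). TNFAIP3 read 34.3, 31.1 and 30.7 CPM and fell by 1.40 ± 0.11 (edgeR adjusted p = 8.78e-08). TRAF1 read 0.957, 1.46 and 1.41 CPM and fell by 1.53 ± 0.30. NFKBIE read 22.0, 25.2 and 24.4 CPM and fell by 0.99 ± 0.13. For TNFAIP3, TRAF1, RELB and NFKBIE every paclitaxel library lay below every control. NFKB2 fell by 0.71 ± 0.10, to 101, 111 and 111 CPM, and RELA by 0.56 ± 0.09, to 158, 161 and 169 CPM. In all, 7 of the 10 genes had libraries apart, each lower, as 66.2% of genes tested had in either direction.

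NFKB1 (26.2, 24.3 and 29.1 CPM against 34.9, 31.1 and 34.4) fell by 0.36 ± 0.13, and NFKBIA (182, 199 and 195 against 197, 253 and 263) by 0.33 ± 0.11, with overlapping libraries in NFKBIA. These 2 calls were the least stable. Each was lost in 4 of the 12 fits that left out 1 library: NFKB1 without control replicate 1 or 3 or paclitaxel replicate 1 or 2, and NFKBIA without control replicate 2 or 3 or paclitaxel replicate 1 or 3. The highest adjusted p in those fits was 0.145 for NFKB1 and 0.0947 for NFKBIA. With the length and GC trend removed, NFKB1 stood at −0.17 and NFKBIA at 0.03, neither called. The other 6 stayed called in that fit, with RELA at −0.27 and NFKB2 at −0.44, RELB at −0.96, NFKBIE at −0.68, TNFAIP3 at −1.27 and TRAF1 at −1.39. NFKBIZ (0.16 ± 0.17) and BIRC3 (0.69 ± 0.34, edgeR adjusted p = 0.098) did not pass the test. BIRC3 passed it without control replicate 2 (1.09) or almonertinib replicate 3 (0.70), and stood at −0.08 with the length and GC trend removed.

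**Figure D3:**
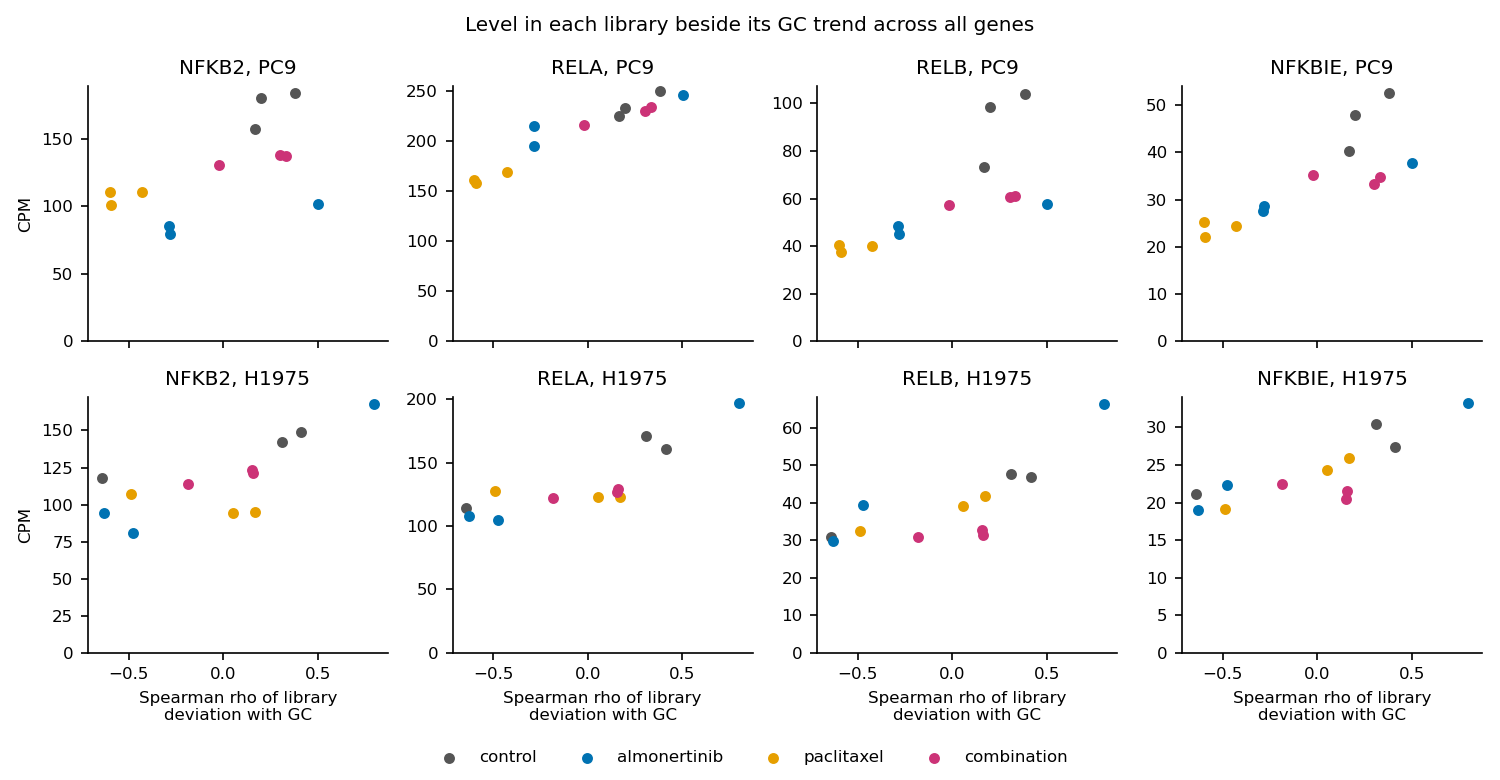
CPM of the GC-rich genes NFKB2, RELA, RELB and NFKBIE in each library against the Spearman rho of that library's deviation with GC content over all genes. PC9 paclitaxel libraries lie at the left and low, and H1975 almonertinib replicate 1 (rho 0.80) lies highest in H1975 for all 4 genes.

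Under both drugs in PC9, 5 genes were lower than in the control and 1 was higher. Over all genes tested 50.7% were called, 26% lower and 24.7% higher. TNFAIP3 read 30.3, 31.2 and 28.4 CPM and fell by 1.48 ± 0.11 from the control. TRAF1 read 1.11, 0.780 and 1.78 CPM and fell by 1.58 ± 0.30. RELB fell by 0.63 ± 0.12, to 60.8, 57.4 and 60.9 CPM, NFKBIE by 0.45 ± 0.12 and NFKB2 by 0.36 ± 0.10, to 138, 131 and 137 CPM. NFKBIZ, the nuclear cofactor, rose by 0.66 ± 0.16 (edgeR adjusted p = 0.00337), reading 18.1, 21.7 and 18.3 CPM against 11.2, 13.5 and 12 in the controls. The libraries of these 6 genes and of NFKB1 were apart from the controls, as were those of 62.9% of genes tested. RELA (−0.06 ± 0.09), NFKBIA (0.12 ± 0.11), NFKB1 (−0.20 ± 0.13) and BIRC3 (−0.09 ± 0.36) did not pass the test, and NFKBIA was called higher (0.36) with the length and GC trend removed. The 3 comparisons with the control share its libraries, so their likeness is no independent evidence.

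Against almonertinib alone, the combination held more mRNA of 3 of the 10 genes and less of none, where 20.1% of genes tested were called and 10.3% were higher. TNFAIP3 was 1.06 ± 0.11 higher on the log2 scale (2.08-fold, edgeR adjusted p = 1.03e-05), with the combination libraries at 28.4 to 31.2 CPM and every almonertinib library at 15.3 CPM or less. NFKB2 was 0.60 ± 0.10 higher, at 138, 131 and 137 CPM against 85.6, 79.4 and 102. TRAF1 (0.78 ± 0.36, edgeR adjusted p = 0.136), NFKBIA (0.23 ± 0.11), RELB (0.23 ± 0.12), NFKBIE (0.12 ± 0.12), NFKB1 (0.09 ± 0.13), RELA (0.04 ± 0.09) and BIRC3 (−0.25 ± 0.35) did not pass the test. NFKBIZ was 0.49 ± 0.16 higher (edgeR adjusted p = 0.0407), a call lost in 8 of 12 fits that left out 1 library: any 1 of the combination or paclitaxel replicates, or almonertinib replicate 1 or 3, with adjusted p values up to 0.131. Without almonertinib replicate 3 the count rose to 5, since RELB (0.34), NFKBIA (0.31) and NFKBIE (0.28) were then called higher and NFKBIZ (0.30) was not. Removing the length and GC trend made RELB a call as well (0.32, adjusted p = 0.0115), giving 4 genes.

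Against paclitaxel alone, 6 of the 10 were higher under the combination and none lower, where 44.1% of genes tested were called and 21.7% were higher. These were RELB (0.62 ± 0.12), NFKBIE (0.55 ± 0.12), NFKBIZ (0.50 ± 0.16), RELA (0.50 ± 0.09), NFKBIA (0.45 ± 0.11) and NFKB2 (0.35 ± 0.10). RELA shows the pattern by library, with 230, 216 and 234 CPM under both drugs and 158, 161 and 169 under paclitaxel. TNFAIP3 (−0.08 ± 0.11) and TRAF1 (−0.05 ± 0.32) did not pass the test and had overlapping libraries, with 95% intervals of −0.31 to 0.15 and −0.73 to 0.64. BIRC3 went the other way (−0.77 ± 0.33, edgeR adjusted p = 0.0676), with every combination library (2.57, 2.66 and 1.19 CPM) below every paclitaxel library (3.96, 4.01 and 3.16). It was called lower without almonertinib replicate 3 (−0.77, adjusted p = 0.0260) or control replicate 3 (adjusted p = 0.0479), in the fit of only the groups compared and without the filter on low counts. It stood at −0.33 and was not called with the length and GC trend removed. NFKB1 (0.16 ± 0.13) did not pass the test. With the length and GC trend removed NFKB2 stood at 0.03 and was no longer called, while RELB (0.27), NFKBIE (0.24) and RELA (0.27) kept their calls at smaller values. NFKB2 also lost its call without paclitaxel replicate 1 (edgeR adjusted p = 0.0534), and NFKBIZ without combination replicate 2 or paclitaxel replicate 1 or 3.

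The interaction of the drugs is the log2 change under both minus the sum of the changes under each alone. A value of 0 means that the single changes add up, if the combination held the single-drug doses. The labels do not give its doses, so an interaction cannot be told apart from a difference in dose. In PC9 the interaction was positive for 7 of the 10 genes and negative for none, where 45.5% of genes tested were called and 22.1% were positive. For TNFAIP3 and TRAF1 the sum of both single-drug falls lay far below the change under the combination. Their interactions were 2.46 ± 0.16 (edgeR adjusted p = 6.47e-09) and 2.32 ± 0.46 (edgeR adjusted p = 0.000872, from 13 to 71 reads in a library). RELB followed with 1.48 ± 0.17, NFKB2 with 1.30 ± 0.14, NFKBIE with 1.12 ± 0.18, RELA with 0.60 ± 0.13 and NFKBIA with 0.56 ± 0.15. NFKB1 (0.44 ± 0.19), NFKBIZ (0.33 ± 0.23) and BIRC3 (−0.94 ± 0.49) did not pass the test. BIRC3 was called negative without almonertinib replicate 3 (−1.22, edgeR adjusted p = 0.0223) or control replicate 2 (−1.34, adjusted p = 0.0380), and stood at 0.11 with the length and GC trend removed. NFKB1 was called positive without almonertinib replicate 2 (0.61, adjusted p = 0.0107), by DESeq2 and with RLE factors. With the length and GC trend removed, which moved the median over all genes from 0.01 to −0.11, NFKBIA stood at 0.11 and was not called, and RELA stood at 0.21 and was still called (0.19 and not called when 3 libraries that stood apart were also left out). TNFAIP3 (2.11), TRAF1 (1.93), RELB (1.28), NFKB2 (1.04) and NFKBIE (0.83) kept their calls.

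**Figure D4:**
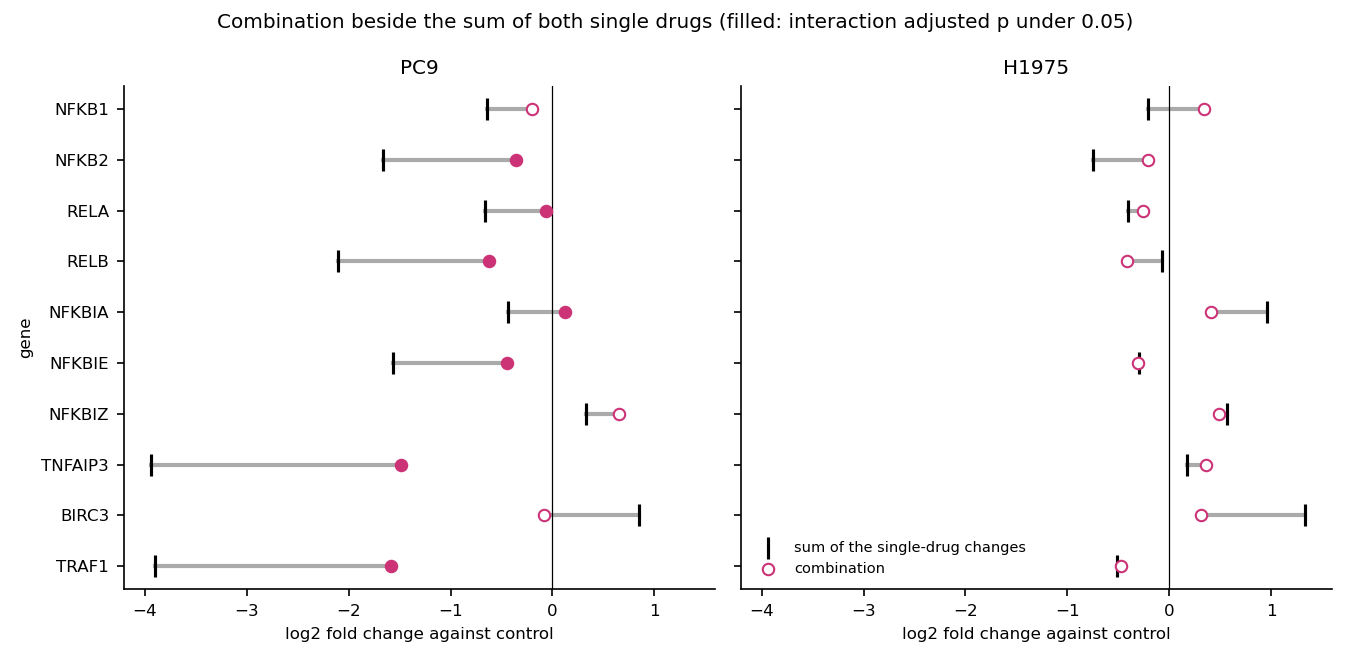
For each gene, the log2 change under the combination (circles) beside the sum of both single-drug changes (ticks), in each line; grey bars span the interaction, and filled circles have an interaction with an edgeR adjusted p under 0.05. The widest gaps are those of TNFAIP3 (2.46) and TRAF1 (2.32) in PC9. The labels do not give the doses within the combination.

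In H1975 none of the 10 genes was called in any of the 6 comparisons by edgeR. The background was low as well: 1.95% of genes tested were called under almonertinib, 0.64% under paclitaxel, 2.46% under the combination, 0% for the combination against almonertinib, 0% against paclitaxel and 0.672% for the interaction. At an unadjusted p under 0.05 the members numbered 2, 2, 3, 1, 2 and 2 in the same order, where 10.4, 8.16, 18.6, 9.96, 13.8 and 10.3% of all genes tested passed. DESeq2 called 1, NFKB1 in the combination against paclitaxel. The spread between libraries was wider in H1975, with a biological coefficient of variation of 0.191 against 0.111 in PC9.

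NFKBIA, the IkBα gene, read 120, 137 and 106 CPM in H1975 controls, 221, 142 and 160 under almonertinib, 170, 149 and 180 under paclitaxel and 153, 163 and 170 under both. Every treated library lay above every control. Such a separation upward was seen for 2 of the 10 genes under almonertinib (NFKBIA and TNFAIP3), 1 under paclitaxel (NFKBIA) and 4 under the combination (NFKB1, NFKBIA, NFKBIZ and TNFAIP3), where 7.43%, 6.94% and 18.7% of genes tested had it. NFKB2 was apart and lower under paclitaxel. For NFKBIA the log2 differences from the control under almonertinib, paclitaxel and both were 0.51 ± 0.17, 0.45 ± 0.17 and 0.41 ± 0.17. Their edgeR adjusted p values were 0.182, 0.416 and 0.207. With the length and GC trend removed the first and the last were called (0.55, adjusted p = 0.00706, and 0.37, adjusted p = 0.0389).

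NFKB1 read 38.3, 36.1 and 40.9 CPM under both drugs, above all paclitaxel libraries (28.7, 24.7 and 21.5), a difference of 0.62 ± 0.15 with an edgeR adjusted p of 0.0878. It was called without H1975 almonertinib replicate 1 (adjusted p = 0.0196) and also without paclitaxel replicate 1. TNFAIP3 stayed low, with 9.97, 9.13 and 10.6 CPM under almonertinib against 7.46, 7.79 and 8.98 in controls (0.28 ± 0.17, interval −0.08 to 0.65). NFKB2 read 168, 94.2 and 80.7 CPM under almonertinib, where the first is the library with the rho of 0.80. Its difference from the control was −0.27 ± 0.21, and without that library −0.62, which was called (edgeR adjusted p = 0.0187). Without the same library the NFKB2 interaction was called too, at 0.89 against 0.54 ± 0.29. RELA (197, 108 and 105 CPM), RELB (66.3, 29.8 and 39.3) and TRAF1 (52.5, 25.3 and 28.3) were high in that library in the same way. The part of the GC trend in these values was not tested beyond the fit that removes it, in which TRAF1 under the combination was called lower (−0.68).

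The responses of the lines were then compared in a fit of all 24 libraries, as the change in PC9 minus the change in H1975. For almonertinib, 4 of the 10 responses differed, each lower in PC9, where 16.6% of genes tested differed and 11% were lower. TNFAIP3 differed by −2.84 ± 0.19 (edgeR adjusted p = 8.70e-11), TRAF1 by −2.18 ± 0.43, RELB by −0.97 ± 0.29 and NFKBIA by −0.65 ± 0.21 (adjusted p = 0.0370, and 0.0518 with RLE factors). NFKB2 (−0.71 ± 0.25, adjusted p = 0.0519) lay near the threshold and was called by DESeq2. NFKBIE (−0.49 ± 0.25), NFKB1 (−0.37 ± 0.20), NFKBIZ (−0.34 ± 0.28), BIRC3 (−0.65 ± 0.62) and RELA (0.01 ± 0.25) did not pass the test. Without the length and GC trend, NFKB2 (−0.69) and NFKBIE (−0.48) were called and NFKBIA (−0.35) was not. For paclitaxel 5 differed, again each lower in PC9, where 17.1% of genes tested differed and 7.21% were lower. They were TNFAIP3 (−1.29 ± 0.18), TRAF1 (−1.22 ± 0.40), RELB (−1.08 ± 0.29), NFKBIE (−0.79 ± 0.25) and NFKBIA (−0.77 ± 0.21). For the combination TNFAIP3 alone was called (−1.86 ± 0.18, edgeR adjusted p = 2.50e-07), where 18% of genes tested differed. NFKB1 (−0.55 ± 0.20, adjusted p = 0.0517) and TRAF1 (−1.11 ± 0.40, adjusted p = 0.0572) lay near the threshold, and both were called by DESeq2. RELB (−0.45) was called beside TNFAIP3 (−1.50) with the length and GC trend removed.

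TNFAIP3 in all 3 comparisons, TRAF1 under almonertinib and RELB under paclitaxel kept their calls when any 1 library was left out. The other 5 calls depended on single libraries. NFKBIA under almonertinib lost its call in 11 of 24 such fits, among them without H1975 almonertinib replicate 1 and without H1975 control replicate 3. Under paclitaxel TRAF1 lost it in 10, NFKBIE in 8 and NFKBIA in 3, and RELB under almonertinib in 4. H1975 control replicate 3 is in each of these 5 sets, and its rho with GC was −0.64 against 0.31 and 0.41 in the other H1975 controls. PC9 control replicate 3 is in each of them too. Without H1975 control replicate 3 or without PC9 control replicate 3, 2 genes remained called for almonertinib and 2 for paclitaxel.

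**Figure D5:**
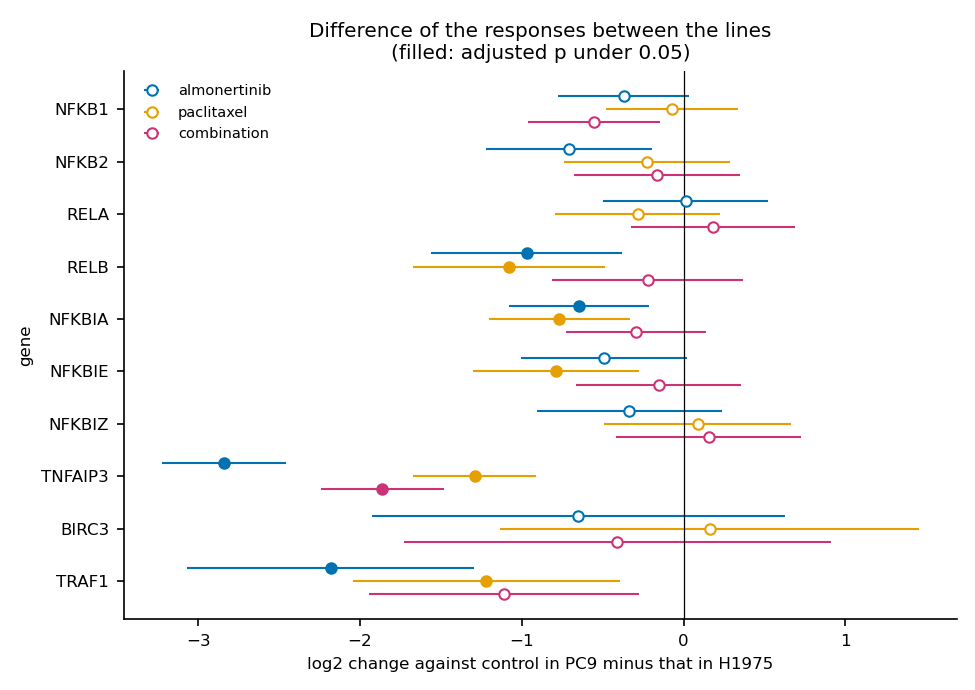
Difference of the log2 responses, PC9 minus H1975, for each gene and treatment (bars: 95% confidence intervals; filled points: edgeR adjusted p under 0.05). TNFAIP3 is filled for all 3 treatments, at −2.84, −1.29 and −1.86.

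Around these 10 genes, further genes of the pathway were counted in lists by role. Of these, 10 kinases and kinase partners, 26 receptors and adaptors and 29 transcriptional targets were tested in PC9. The kinase list includes IKBKG, TAB2 and TAB3, which are partners of kinases. The values of all lists come from the main fit only, and the part of the length and GC trend in them was not tested. Under almonertinib in PC9, 5 of the 10 genes of the kinase list rose and none fell, where 28.9% of all genes tested rose and 27.8% fell. Among them were TBK1 (1.29 ± 0.26, from a mean of 3.52 to 8.64 CPM) and IKBKE (0.73 ± 0.10), which act on interferon regulatory factors. Of 26 receptors and adaptors 6 rose and 10 fell, with a median of −0.07, so 16 of 26 were called where 56.7% of all genes were. The adaptor MYD88 rose by 1.06 ± 0.09 and TNFRSF12A, the receptor of the cytokine TWEAK, fell by 0.81 ± 0.13. Of 29 transcriptional targets 16 fell and 5 rose, with a median of −0.55 beside 0.03 over all genes. IL6, an inflammatory cytokine gene, fell by 4.82 ± 0.24, from a mean of 63.4 to 2.21 CPM, and TNFAIP2 rose by 1.08 ± 0.10. Of 11 genes of the ubiquitin machinery and brakes 3 rose and 3 fell. TNIP1, a partner of A20, fell by 0.82 ± 0.13, while TAX1BP1 (1.21 ± 0.20) and BIRC2 (1.07 ± 0.17) rose.

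Paclitaxel in PC9 lowered 11 and raised 3 of the 29 targets, with a median of −0.26 beside −0.01 over all genes, where 28% of all genes fell and 27% rose. IL6 changed by −3.28 ± 0.21 and SDC4, a syndecan gene, by −1.50 ± 0.16. Of the 10 genes of the kinase list 5 rose and 4 fell, with a median of 0.11. MAP3K14, the kinase NIK that starts the non-canonical arm, fell by 0.76 ± 0.10 to a mean of 31.3 CPM. IKBKG, the scaffold of the IKK complex, fell by 0.66 ± 0.13, while TBK1 (1.17 ± 0.26) and TAB3 (0.88 ± 0.18) rose. Of 11 genes of the ubiquitin machinery and brakes 2 rose and 5 fell. TNIP1 fell by 1.08 ± 0.13 and TNIP2 by 0.97 ± 0.11, while TAX1BP1 (1.02 ± 0.20) and BIRC2 (0.70 ± 0.17) rose. Under the combination 14 targets fell and 7 rose, with a median of −0.26 beside 0.0041 over all genes, where 26% of all genes fell and 24.7% rose. Changes were called for IL6 at −2.68 ± 0.20 and the chemokine gene CCL5 at 1.06 ± 0.23 above the control. Of 6 other subunits and inhibitors 2 rose and 2 fell. BCL3, a nuclear member of the IkB family, rose by 0.86 ± 0.13, while NFKBIB (−0.61 ± 0.09) and NFKBID (−0.96 ± 0.19) of the same family fell. In the PC9 interaction 11 of 29 targets were positive and 6 negative, where 22.1% of all genes were positive and 23.4% negative. Positive values included IL6 at 5.42 ± 0.32 and CCL5 at 4.12 ± 0.33, and CXCL1 (−1.83 ± 0.22) and CXCL8 (−1.87 ± 0.35) were negative. Of the 10 genes of the kinase list 3 were positive and 5 negative, among them MAP3K14 (0.92 ± 0.14), TBK1 (−1.86 ± 0.35) and CHUK (−0.90 ± 0.24). Of 11 genes of the ubiquitin machinery and brakes 2 were positive and 2 negative, among them TNIP1 (1.45 ± 0.19), TAX1BP1 (−1.19 ± 0.28) and BIRC2 (−0.85 ± 0.24). Of 6 other subunits and inhibitors 2 were positive, BCL3 (0.66 ± 0.18) and NFKBIB (0.54 ± 0.12), and 1 was negative. In H1975 almonertinib raised 2 and lowered 1 of 28 targets, where 1.35% of all genes tested rose and 0.599% fell. CCL5 changed by 1.18 ± 0.20 to a mean of 6.97 CPM and PLAU by −0.75 ± 0.16. Paclitaxel raised 1 target, CCL5 (1.02 ± 0.20), where 0.446% of all genes rose. The combination raised 2, CCL5 (0.95 ± 0.20) and SOD2 (0.60 ± 0.14), and lowered 1, BCL2L1 (−0.89 ± 0.19), where 1.77% rose and 0.697% fell. No gene of the other lists was called under any treatment in H1975.

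RELB and NFKBIE had the most alike levels of any pair of the 10 in PC9, with a Pearson r of 0.98 over 12 libraries of log2 CPM, and TNFAIP3 and TRAF1 followed at 0.92. In H1975 the pair RELB and NFKBIE had an r of 0.94, TNFAIP3 and TRAF1 one of −0.38, and the most alike pair was RELA and TRAF1 (0.95). These values describe libraries that share treatments and the GC trend, and carry no test. Across 8445 genes expressed in both lines, with each line centred on its own mean over 24 libraries, the genes most like TNFAIP3 were LAMA3 (r = 0.97), COL17A1 (0.96) and MAP4K4 (0.96). Those most like TRAF1 were PDLIM7 (0.93), COX6B2 (0.92) and SMOX (0.92), and those most like RELB were NFKBIE (0.96), IL32 (0.95) and PIP4P1 (0.95).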

How the data were processed

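Raw counts per gene in 24 RNA-seq libraries (TRIzol RNA, SMART-RNAseq Library Prep Kit, per the labels' protocols) were used as the authors deposited them. Reads were processed with HISAT2 2.2.1, HTSeq and GRCh38, per the submitters' processing notes; strand setting, annotation and HTSeq version are not given in the sources used here, so reads of antisense or overlapping genes cannot be told apart. Totals of 14232299 to 24245314 counts limit the low genes most.

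The 12 libraries of each line were fitted together in R 4.3.3 with edgeR 4.0.16 (filterByExpr, TMM factors, glmQLFit and glmQLFTest), one term per group. A fit of all 24 libraries gave the differences between lines. P-values were Benjamini-Hochberg adjusted over all genes tested (12796 in PC9, 12345 in H1975, 13380 in both) and called under 0.05. The 16 comparisons were each adjusted separately. CPM values were computed here with TMM factors over all 24 libraries, and likeness used log2 CPM with a prior count of 2. Values with the length and GC trend removed used a spline with 5 degrees of freedom per library as an offset. The fits were tested on simulated data.

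The alternatives were RLE factors, DESeq2 1.42.0, no filter, only the groups compared, a replicate block, the trend offset and each library left out. Samples were grouped by title. The repeat numbers were checked for pairing by correlating the deviations of same-numbered libraries from their group means: all 3 correlations passed 0.1 for PC9 control with almonertinib (0.118, 0.104 and 0.394) and for H1975 control with combination (0.11, 0.168 and 0.345), and for no other pair of groups.

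All 10 members were named. Of each other pathway list and comparison, up to 2 rising and 2 falling called genes with the smallest p and a mean of at least 5 CPM could be named. The members, the lists and the tests were chosen with earlier results of these data known. Promoter sequences came from RefSeq on GRCh38.p14.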

Additional observations from a re-analysis of the deposited data

Results flagged for a closer look

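Responses to a drug differed between the lines, by a test of the difference itself in the fit of all 24 libraries, for 10 combinations of gene and treatment. Values are the log2 change in PC9 minus that in H1975. Under almonertinib these were TNFAIP3 (−2.84, edgeR adjusted p = 8.70e-11), TRAF1 (−2.18, edgeR adjusted p = 0.000957), RELB (−0.97, edgeR adjusted p = 0.0215) and NFKBIA (−0.65, edgeR adjusted p = 0.0370). Under paclitaxel they were TNFAIP3 (−1.29, edgeR adjusted p = 7.68e-05), RELB (−1.08, edgeR adjusted p = 0.0136), NFKBIE (−0.79, edgeR adjusted p = 0.0321), NFKBIA (−0.77, edgeR adjusted p = 0.0166) and TRAF1 (−1.22, edgeR adjusted p = 0.0384). Under the combination it was TNFAIP3 (−1.86, edgeR adjusted p = 2.50e-07). Not all of these calls were stable when 1 library was left out. Under almonertinib NFKBIA lost its call in 11 of 24 such fits and RELB in 4. Under paclitaxel TRAF1 lost it in 10, NFKBIE in 8 and NFKBIA in 3. The other calls were kept in every such fit. The doses differed between the lines, so line and dose cannot be told apart.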

How the results depend on the processing

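The falls of TNFAIP3, TRAF1, RELB, NFKB2 and NFKBIE against the control in PC9, under each drug and both, stayed called under every alternative run, leaving out single libraries included. A further 3 settings were chosen after seeing the data: leaving out the 3 libraries furthest from their groups (tried first; it leaves 1 library in H1975 almonertinib, assumed to vary like the others), the same with the trend removed, and leaving out the furthest library of each line. The number of the 10 genes called moved from 5 to 8 under almonertinib in PC9 with the trend removed and 3 libraries left out, and from 3 to 5 for the combination against almonertinib without 2 or 3 libraries. In H1975 it moved from 0 to 1 under almonertinib (trend removed; without 2 libraries), to 2 under paclitaxel (trend removed, 3 libraries left out) and for the combination to 2 (trend removed), 1 (only the groups compared) and 4 (trend removed, 3 libraries left out). It moved from 0 to 1 for the H1975 combination against paclitaxel (DESeq2, only the groups compared, without 2 or 3 libraries, and with the trend removed as well) and for the H1975 interaction (without 2 libraries). The combination response differed between the lines for 2 genes with RLE factors, without the filter, with the replicate block or with the trend removed, for 3 with DESeq2 or without 2 or 3 libraries, and for 5 with the trend removed and 3 libraries left out. The replicate block moved no other count of members by over 1.5 times. It changed no call for PC9 almonertinib or the H1975 combination against the control, where all 3 correlations by repeat number passed 0.1. The labels do not say whether repeat numbers pair libraries. With RLE factors the PC9 paclitaxel means were 101.7 CPM for NFKB2, 153.6 for RELA, 37.12 for RELB and 181.7 for NFKBIA. Leaving out 1 library, the counts ranged in PC9 from 5 to 7 (almonertinib), 6 to 9 (paclitaxel), 6 to 6 (combination), 2 to 5 (against almonertinib), 4 to 7 (against paclitaxel) and 7 to 8 (interaction). In H1975 they ranged from 0 to 1 for almonertinib, the combination against paclitaxel and the interaction, and were 0 in the other comparisons. For the differences of responses they ranged from 2 to 5, 2 to 5 and 1 to 3, and for the control level from 7 to 8. Over all genes, removing the trend changed the split of higher and lower calls from 1324 and 1246 to 1355 and 1971 for the PC9 combination against almonertinib, and in H1975 from 167 and 74 to 515 and 494 (almonertinib), from 55 and 24 to 184 and 247 (paclitaxel), from 218 and 86 to 665 and 1046 (combination) and from 32 and 51 to 164 and 147 (interaction). It changed it from 740 and 1476 to 1968 and 1927 for the almonertinib response and from 935 and 1467 to 2065 and 1984 for the combination response, and RLE factors from 1325 and 965 to 1043 and 1229 for the paclitaxel response. The cause was not tested. Values that changed sign were uncalled in both fits, except NFKBIA under almonertinib and paclitaxel in PC9 and NFKB1 under almonertinib with the trend removed and 3 libraries left out. With the length and GC trend removed, the sign changed for NFKB1 0.094, RELA 0.058, NFKBIA 0.22, BIRC3 −0.44 (PC9 almonertinib against control); NFKBIA 0.029, BIRC3 −0.083 (PC9 paclitaxel against control); NFKB1 −0.12, RELA −0.058, BIRC3 0.025 (PC9 combination against almonertinib); BIRC3 0.11 (PC9 drug interaction); RELB −0.021 (H1975 almonertinib against control); NFKBIZ −0.14, TNFAIP3 −0.17 (H1975 combination against almonertinib); RELA −0.054, BIRC3 0.0018 (H1975 combination against paclitaxel); NFKBIE 0.089, TNFAIP3 −0.10, TRAF1 −0.24 (H1975 drug interaction); NFKB1 0.10, BIRC3 −0.58 (paclitaxel response PC9 minus H1975); NFKB1 −0.17 (control level PC9 minus H1975). With the trend removed and 3 libraries left out, the sign changed for NFKB1 0.26, RELA 0.082, NFKBIA 0.27, BIRC3 −0.31 (PC9 almonertinib against control); NFKBIA 0.043, BIRC3 −0.064 (PC9 paclitaxel against control); RELA 0.016 (PC9 combination against control); NFKB1 −0.27, RELA −0.066 (PC9 combination against almonertinib); NFKB1 −0.12 (PC9 drug interaction); RELB −0.19 (H1975 almonertinib against control); NFKB1 −0.0012, NFKBIZ −0.075, TNFAIP3 −0.029, BIRC3 0.048 (H1975 combination against almonertinib); RELA −0.054, BIRC3 0.0065 (H1975 combination against paclitaxel); RELB 0.033, NFKBIE 0.15 (H1975 drug interaction); NFKB1 0.15, NFKBIZ 0.15 (almonertinib response PC9 minus H1975); NFKB1 0.12, BIRC3 −0.55 (paclitaxel response PC9 minus H1975); NFKB1 −0.18 (control level PC9 minus H1975). Without 2 libraries that stood apart, the sign changed for NFKB1 −0.062 (PC9 combination against almonertinib); RELB −0.26 (H1975 almonertinib against control); RELA 0.21, NFKBIA 0.076, NFKBIE 0.031, NFKBIZ −0.15, TRAF1 0.0901 (H1975 combination against almonertinib); RELB 0.0064, NFKBIE 0.22 (H1975 drug interaction). Without 3 libraries that stood apart, the sign changed for NFKB1 −0.062 (PC9 combination against almonertinib); RELB −0.46 (H1975 almonertinib against control); RELA 0.17, RELB 0.041, NFKBIA 0.15, NFKBIE 0.13, NFKBIZ −0.035, TRAF1 0.16 (H1975 combination against almonertinib); RELB 0.20, NFKBIE 0.33 (H1975 drug interaction). With RLE factors, the sign changed for NFKBIE 0.036 (H1975 drug interaction); NFKBIZ −0.011 (paclitaxel response PC9 minus H1975). Without the filter on low counts, the sign changed for NFKBIE 0.002 (H1975 drug interaction). With DESeq2, the sign changed for NFKBIE 0.036 (H1975 drug interaction); NFKBIZ −0.0089 (paclitaxel response PC9 minus H1975). Leaving out 1 library in turn, the log2 values that changed sign ranged as follows: BIRC3 −0.11 to 0.57, NFKBIZ −0.042 to 0.37 (PC9 almonertinib against control); BIRC3 −0.36 to 0.31 (PC9 combination against control); BIRC3 −0.51 to 0.036, RELA −0.041 to 0.13, NFKB1 −0.062 to 0.25 (PC9 combination against almonertinib); TRAF1 −0.41 to 0.18 (PC9 combination against paclitaxel); RELB −0.26 to 0.30, NFKBIE −0.33 to 0.042, RELA −0.47 to 0.015 (H1975 almonertinib against control); NFKBIZ −0.13 to 0.26 (H1975 paclitaxel against control); BIRC3 −0.13 to 1.11 (H1975 combination against control); RELA −0.27 to 0.21, NFKBIA −0.21 to 0.076, NFKBIE −0.34 to 0.031, NFKBIZ −0.15 to 0.15, TRAF1 −0.45 to 0.0901, NFKB2 −0.12 to 0.42 (H1975 combination against almonertinib); RELA −0.0092 to 0.041, NFKBIA −0.12 to 0.012 (H1975 combination against paclitaxel); RELB −0.55 to 0.0064, NFKBIE −0.15 to 0.22, TRAF1 −0.14 to 0.39, RELA −0.004 to 0.48, NFKBIZ −0.26 to 0.14 (H1975 drug interaction); RELA −0.12 to 0.40 (almonertinib response PC9 minus H1975); NFKBIZ −0.078 to 0.29, BIRC3 −0.62 to 0.57, NFKB1 −0.14 to 0.041 (paclitaxel response PC9 minus H1975); BIRC3 −1.19 to 0.019, NFKBIZ −0.0072 to 0.25 (combination response PC9 minus H1975).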
